A study of Mus musculus with 12 samples.

Results

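The testis-specific serine kinases are the genes Tssk1, Tssk2, Tssk3, Tssk4 and Tssk6, taken by symbol from a table of 23235 mouse genes, and all 5 were found and passed the filter on low values that left 15400 genes. Their RNA was measured in C57BL/6 spermatocytes sorted by flow cytometry as pachytene or as leptotene/zygotene (LZ), which are stages of the first meiotic prophase. The groups were pachytene cells labelled Rnaseh1 knock-out, pachytene wild type (WT) cells, LZ cells labelled Rnaseh1 knock-out and LZ WT cells, with 3 libraries each and 12 in all. RNase H1 removes RNA from RNA:DNA hybrids. The allele, any Cre driver and the ages of the mice are not given in the sources used here, and the labels do not say which libraries came from separate animals, so p-values measure the spread between libraries.

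TSSK proteins form a small family of kinases related to the AMP-activated protein kinases. In the mouse their genes are known for expression late in sperm formation, mainly in spermatids, and males that lack Tssk6, or Tssk1 and Tssk2 together, are sterile with malformed sperm. Tssk6 is also known for a role in the exchange of histones for protamines.

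Values are spike-in-scaled FPKM, fragments per kilobase of transcript scaled by the authors with added ERCC RNA, so that levels can be set side by side between genes and between libraries. A gene was called where its two-sided Benjamini-Hochberg adjusted p in limma was under 0.05. The fit took 1 estimate of the spread of each gene over all 12 libraries. The standard error of a gene is therefore the same in both genotype comparisons and is not the spread at that stage. Rnaseh1 itself averaged 80.2 ± 13.0 FPKM in the pachytene libraries labelled knock-out and 53.7 ± 2.74 in pachytene WT, and 14.7 ± 3.62 in the LZ libraries labelled knock-out and 17.8 ± 2.39 in LZ WT (SD, n = 3 each). It was called at neither stage (limma adjusted p = 0.0638 at pachytene and 0.407 at LZ). At pachytene all 3 libraries labelled knock-out lay above the WT ones on the spike-in scale. After each library was scaled by its median ratio to all libraries, they overlapped (25.5, 24.6 and 39.3 labelled knock-out, against 25.5, 26.9 and 23.3 in WT). As its RNA was not called lower, the libraries are called KO-labelled throughout. Within groups, pairs of libraries correlated at 0.923 to 0.952 in KO-labelled LZ cells and at 0.967 to 0.975 in the other 3 groups, over log2 values of the genes tested. KO-labelled LZ replicate 2 had the lowest level of every Tssk gene, and of Prm1, among the 6 LZ libraries.

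Tssk1 and Tssk2 lie next to each other on chromosome 16 with 0 annotated genes between them, and each has 1 exon. Tssk6, on chromosome 8, also has 1 exon, Tssk3, on chromosome 4, has 2, and the transcripts of Tssk4, on chromosome 14, have 3 to 4. The transcripts of Tssk1 and Tssk2 were 84.7% identical over 966 aligned bases, with a longest identical run of 113 bases, and how reads were shared between them was not tested. Their upstream sequences, 250 bases before the RefSeq start on GRCm38.p6, are shown because the genes are neighbours and both lower; that of Tssk6 is added because this gene had the largest difference between genotypes at pachytene. Coordinates are chr16:17893953-17894202 (plus strand) for Tssk1, chr16:17898387-17898636 (plus strand) for Tssk2 and chr8:69901934-69902183 (plus strand) for Tssk6. Capitals mark matches to TGACNTCA, a form of the cAMP response element that CREM and related factors bind, and in Tssk6 the shorter TGACG.
Tssk1: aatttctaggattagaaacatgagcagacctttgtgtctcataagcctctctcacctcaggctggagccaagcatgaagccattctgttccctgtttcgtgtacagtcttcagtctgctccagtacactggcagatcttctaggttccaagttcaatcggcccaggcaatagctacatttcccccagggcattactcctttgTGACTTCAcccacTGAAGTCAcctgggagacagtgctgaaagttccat
Tssk2: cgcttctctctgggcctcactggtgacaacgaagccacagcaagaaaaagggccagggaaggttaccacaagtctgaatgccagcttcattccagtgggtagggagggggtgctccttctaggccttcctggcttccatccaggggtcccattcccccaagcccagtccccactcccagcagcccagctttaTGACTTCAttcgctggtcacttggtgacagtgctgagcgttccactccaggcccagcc
Tssk6: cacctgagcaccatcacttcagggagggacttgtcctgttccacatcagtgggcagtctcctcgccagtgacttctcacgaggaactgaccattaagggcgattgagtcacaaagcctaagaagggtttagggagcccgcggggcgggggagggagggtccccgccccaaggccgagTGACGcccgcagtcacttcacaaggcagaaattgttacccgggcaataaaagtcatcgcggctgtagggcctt
Tssk1 held 2 matches to TGACNTCA, which began 48 and 35 bases before the start, and Tssk2 held 1, which began 58 bases before it. The GENCODE transcript of Tssk1 starts 20 bases downstream of the RefSeq start, so the distances are longer by that much from it; for Tssk2, Tssk4 and Tssk6 both starts are the same. That of Tssk3 starts 252 bases upstream, so its window lies inside the GENCODE transcript. Over 32851 RefSeq promoter windows of the same length, 7.49% held TGACNTCA and 17.8% held TGACG. Tssk6 held TGACG once, 73 bases before the start, and neither Tssk3 nor Tssk4 held either. The full element TGACGTCA (1.55% of windows), the MYB motif AACNGTT (3.8%) and TATAAA (12.4%) were in none of the 5 windows. Both strands were searched, TGACGTCA contains the shorter forms, and the motifs were chosen after the sequences had been seen.

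In pachytene cells the 5 kinase genes were lower in every KO-labelled library than in every WT library. The share of all genes whose groups separated in this way was not counted at either stage, so the separation is given as a description only. The largest difference was that of Tssk6, which had 21.8, 13.7 and 4.67 FPKM in KO-labelled pachytene libraries, against 103, 106 and 106 in WT pachytene libraries. Its log2 change on the log2(value + 1) scale was -3.10 with a standard error of 0.68 (limma adjusted p = 0.00971). The 3 WT libraries lay within a narrow range and the KO-labelled libraries spread widely below it.

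Tssk1, with Tssk2 a kinase of the sperm centriole region and the chromatoid body, had 130, 83.0 and 120 FPKM in KO-labelled pachytene cells, against 278, 260 and 304 in WT pachytene cells. Its change of -1.35 ± 0.53 (SE) missed the threshold (limma adjusted p = 0.0562), although the groups did not overlap. Tssk2 had 55.8, 18.3 and 80.9 FPKM in KO-labelled pachytene cells, against 222, 188 and 199 in WT pachytene cells. It fell by 2.18 ± 0.64 on the log2 scale (SE, limma adjusted p = 0.0234), so of the neighbouring pair only Tssk2 was called; the difference between their changes was not tested.

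Tssk3 had 28.9, 18.8 and 47.8 FPKM in KO-labelled pachytene cells, against 173, 168 and 165 in WT pachytene cells, and fell by 2.47 ± 0.70 (SE, limma adjusted p = 0.0209). Tssk4, which in the mouse is known for a role in the structure of the sperm flagellum, had 16.8, 14.1 and 33.0 FPKM in KO-labelled pachytene cells, against 74.5, 86.7 and 114 in WT pachytene cells. It fell by 2.13 ± 0.49 (SE, limma adjusted p = 0.0114). Neither gene had a KO-labelled library above a WT one.

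In all, 4 of the 5 members were called lower in KO-labelled pachytene cells and 0 higher. Of the 15400 genes tested, 14.3% were called lower and 24.6% higher, and the median log2 change over all genes was 0.37. Relative to that median the members' changes ran from -1.72 for Tssk1 to -3.47 for Tssk6, with a median of -2.55. After each library was instead scaled by its median ratio to all libraries, 4 members were again called lower, beside 9.68% of all genes lower and 3.28% higher. Tssk4 and Tssk6 were called in each of the 16 alternatives run at this stage, whereas 2 members were called when the first or second WT library, or the first or second KO-labelled library, was left out.

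**Figure D1:**
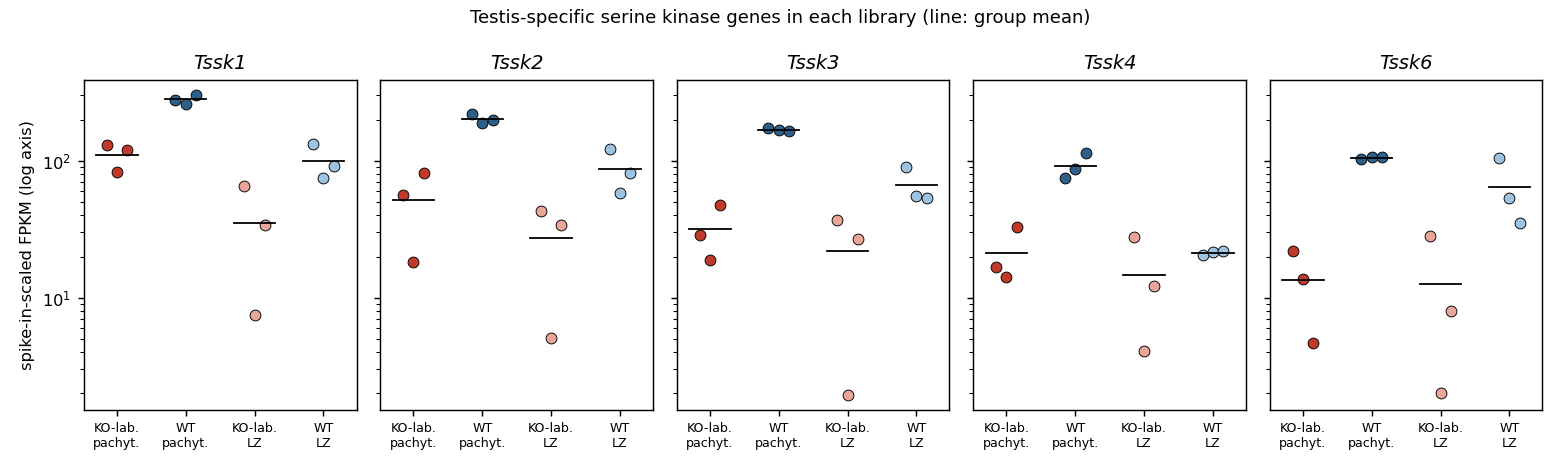
Level of each kinase gene in the 12 libraries, in spike-in-scaled FPKM on a log axis; points are libraries (n = 3 a group), lines are group means, and KO-lab. stands for KO-labelled. At pachytene the KO-labelled points of each gene lie below the WT points, and in KO-labelled LZ cells the lowest point of each gene is replicate 2.

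On the spike-in scale the log2 change in LZ cells was of similar size for Tssk6, Tssk1, Tssk2 and Tssk3 but rested on libraries that varied more. The standard errors and p-values at LZ also draw on the spread of the pachytene libraries. With only the LZ groups fitted, 0 of 15400 genes were called in either direction. Tssk6 had 28.0, 2.02 and 8.05 FPKM in KO-labelled LZ libraries, against 104, 53.9 and 35.0 in WT LZ libraries, and fell by 2.68 ± 0.68 (SE, limma adjusted p = 0.0276). Tssk1 had 64.9, 7.53 and 33.8 FPKM in KO-labelled LZ libraries, against 133, 75.1 and 92.2 in WT LZ libraries, and fell by 1.87 ± 0.53 (SE, limma adjusted p = 0.0381). In neither gene did the groups overlap on the spike-in scale, but under median-ratio scaling they did. There KO-labelled LZ replicate 1 had 204 FPKM of Tssk1 and 88.0 of Tssk6, against lowest WT LZ values of 141 and 85.9.

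Tssk2 had 42.8, 5.08 and 34.0 FPKM in KO-labelled LZ cells, against 121, 57.7 and 81.1 in WT LZ cells, a change of -1.99 ± 0.64 (SE, limma adjusted p = 0.0554). Tssk3 had 36.9, 1.96 and 26.8 FPKM in KO-labelled LZ cells, against 90.5, 55.3 and 53.3 in WT LZ cells, a change of -2.16 ± 0.70 (SE, limma adjusted p = 0.0555). Both missed the threshold with groups that did not overlap on the spike-in scale. Under median-ratio scaling the groups of both genes overlapped. There KO-labelled LZ replicate 1 had 134 FPKM of Tssk2 and 116 of Tssk3, against lowest WT LZ values of 108 and 104. Tssk4 had 27.9, 4.05 and 12.2 FPKM in KO-labelled LZ cells, against 20.5, 21.5 and 22.1 in WT LZ cells. It was the 1 member whose LZ groups overlapped on the spike-in scale (change -0.85 ± 0.49, limma adjusted p = 0.237).

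The count at LZ was thus 2 of 5 members lower and 0 higher, beside 12.9% of all genes lower and 0.136% higher, with a median log2 change over all genes of -0.43. Relative to that median the members' median change was -1.56, against -2.55 relative to the pachytene median. Under median-ratio scaling their median change was -1.47 at LZ and -2.48 at pachytene. Under median-ratio scaling 0 members were called at LZ, beside 0.688% of all genes lower and 0.39% higher, and 2 members had an unadjusted p under 0.05. Leaving out 1 library at a time gave counts from 0 to 5: 0 without WT replicate 1, WT replicate 2, KO-labelled replicate 2 or KO-labelled replicate 3, 1 without WT replicate 3, and 5 without KO-labelled replicate 1. Without both KO-labelled replicate 2 and WT replicate 1, the LZ libraries with the lowest and the highest summed spermatid markers, an alternative chosen after seeing the data, 0 members were called and the changes of Tssk1 and Tssk6 were -0.81 and -1.46. Those libraries also had the lowest and the highest summed level of the 5 kinases at LZ (20.6 and 470 FPKM), so leaving them out makes the difference smaller by construction.

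**Figure D2:**
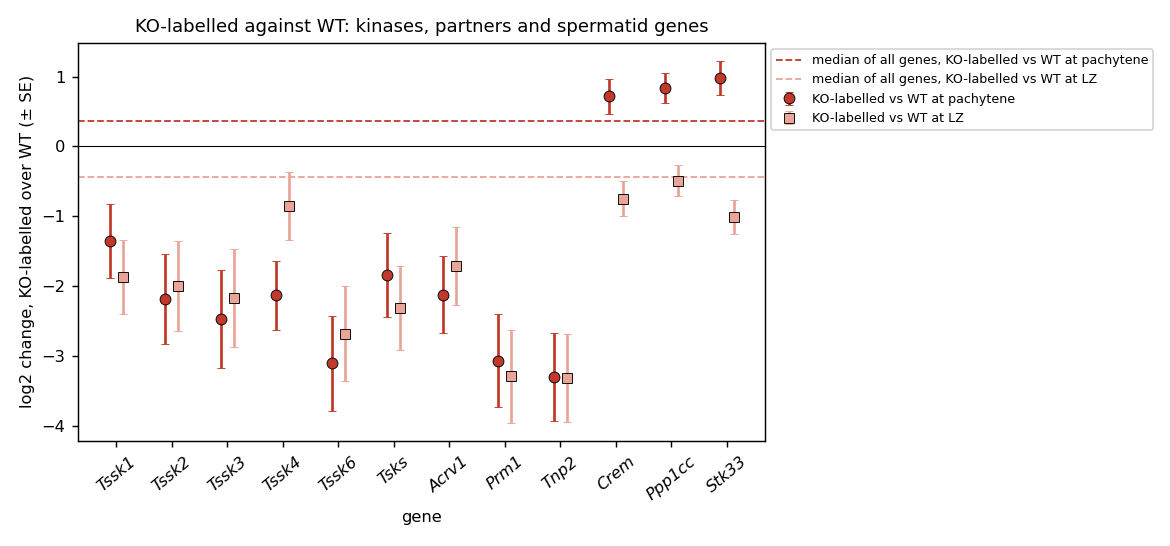
Log2 change of KO-labelled over WT at pachytene (circles) and LZ (squares) with its standard error (3 libraries a group) for the 5 kinase genes, the partner Tsks, the spermatid genes Acrv1, Prm1 and Tnp2, and the genes Crem, Ppp1cc and Stk33, which were picked from the lists after their values were seen. Dashed lines are the median of all genes; at pachytene the kinases lie below it by 1.72 to 3.47, and Crem, Ppp1cc and Stk33 lie above it.

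The KO-labelled against WT difference was not shown to change between the stages for any member. In the test of the difference between the stage effects, 0 of 5 members were called by limma and 0 had an unadjusted p under 0.05, beside 34.9% of all genes higher and 3.49% lower; under median-ratio scaling 0 members were called too, beside 2.32% higher and 4.46% lower. Tssk4 came closest, at -1.28 ± 0.69 (SE, limma adjusted p = 0.153). Without KO-labelled LZ replicate 2, Tssk4 (-1.93, limma adjusted p = 0.0167) and Tssk3 (-1.46, limma adjusted p = 0.0318) were called, both more negative at pachytene.

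Between stages, the change of each kinase gene was under the median change of all genes, except that of Tssk4 in WT cells. In WT cells, Tssk1 averaged 281 ± 22.0 FPKM at pachytene and 100.2 ± 30.0 at LZ (SD, n = 3 each) and rose by 1.51 on the log2 scale (limma adjusted p = 0.0176). Tssk4 averaged 91.8 ± 20.4 FPKM at pachytene and 21.4 ± 0.797 at LZ and rose by 2.03 (limma adjusted p = 0.00171). These were 2 of 5 members called higher, beside 80.9% of all genes higher and 0.487% lower, with a median change of 1.64. Tssk2, Tssk3 and Tssk6 had changes of 1.28, 1.37 and 0.84 that missed the threshold.

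In KO-labelled cells, Tssk1 averaged 111 ± 24.8 FPKM at pachytene and 35.4 ± 28.7 at LZ (SD, n = 3 each), and it was the 1 member of 5 called higher (log2 change 2.03, limma adjusted p = 0.00284), beside 76.8% of all genes higher and 2.83% lower. The other members changed by 0.42 to 1.09, all under the median of 2.29 over all genes. These directions depend on the spike-in scale: under median-ratio scaling, which takes out the shift of the median, 3 members were called lower at pachytene in KO-labelled cells (29.7% of all genes lower and 31.1% higher) and 0 in WT cells (18.1% lower and 20.2% higher). The stage comparisons share their libraries with the genotype comparisons.

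The order of the levels at pachytene in WT cells was Tssk1, Tssk2, Tssk3, Tssk6 and Tssk4, and the libraries of neighbours in this order did not overlap except for Tssk6 and Tssk4. Summed over the 5 genes, the level was 254, 148 and 286 FPKM in KO-labelled pachytene cells, against 850, 808 and 888 in WT pachytene cells. Within the sum, Tssk1 made up 49.8% ± 7.31 of the sum in KO-labelled pachytene cells and 33.0% ± 1.05 in WT pachytene cells (SD, n = 3 each). The share of Tssk3 was 13.6% ± 2.78 in KO-labelled and 19.9% ± 1.12 in WT pachytene cells, and that of Tssk6 was 6.49% ± 4.22 in KO-labelled and 12.4% ± 0.651 in WT pachytene cells.

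For these 3 shares the groups did not overlap, and the two-sided exact permutation p was 0.1, the smallest that 3 against 3 libraries can give (0.25 after adjustment over 10 comparisons). At LZ the share of Tssk4 was 14.7% ± 4.57 in KO-labelled cells and 6.77% ± 2.09 in WT cells, with the same exact p of 0.1. The shares of Tssk2 overlapped between genotypes at both stages (exact permutation p = 0.7 at pachytene and 0.9 at LZ).

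**Figure D3:**
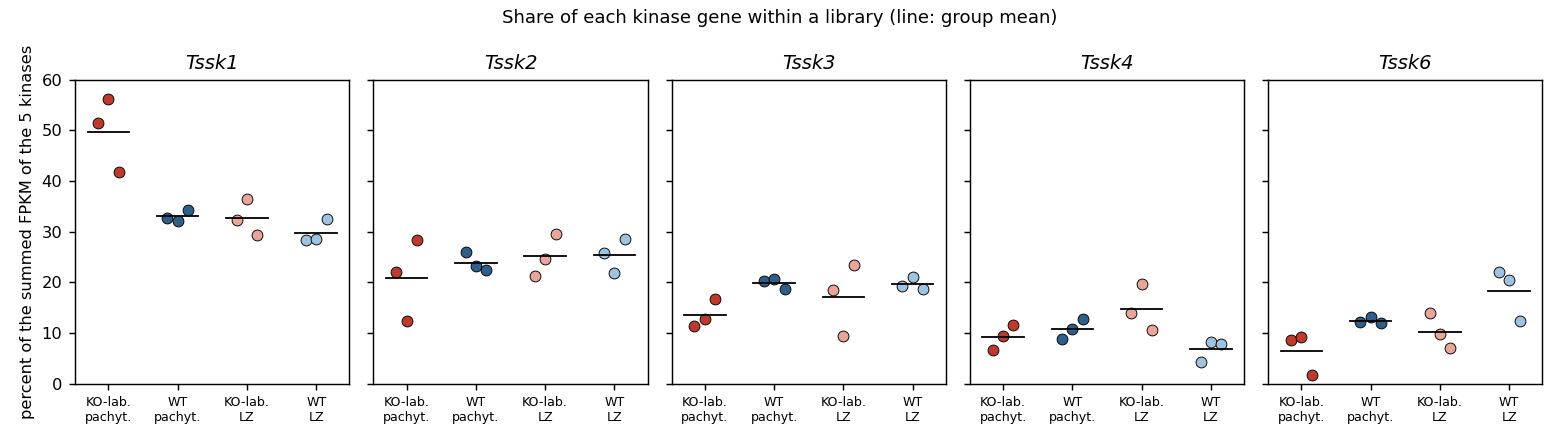
Share of each kinase gene in the summed FPKM of the 5 genes, in percent, for each library (points, n = 3 a group; lines are group means). The 3 KO-labelled pachytene libraries hold 41.8% to 56.2% Tssk1, above the 32.2% to 34.2% of the WT pachytene libraries.

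Spermatid genes moved with the kinases in the same libraries. Of 18 spermatid markers, 16 were lower in KO-labelled than in WT pachytene cells and 0 higher, and 12 were lower and 0 higher at LZ, beside 14.3% and 12.9% of all genes lower. Under median-ratio scaling 16 were again lower at pachytene but 0 at LZ. None of the 18 was at 0 throughout a group, and the list holds 0 of the kinases. Prm1, which encodes a protamine that packs sperm DNA, averaged 3006 FPKM in KO-labelled pachytene cells and 19741 in WT pachytene cells (log2 change -3.06, limma adjusted p = 0.00952). At LZ, Prm1 averaged 1294 FPKM in KO-labelled cells and 10080 in WT cells, so transcripts of this spermatid gene were plentiful in cells sorted as LZ. Prm2, Tnp1 and Tnp2, for another protamine and the transition proteins, fell by 3.18, 2.81 and 3.30 at pachytene, and Acrv1, for an acrosomal protein, fell by 2.12 (limma adjusted p from 0.00529 to 0.0168).

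The summed level of the 18 markers ran from 4816 to 13213 FPKM in KO-labelled and from 44870 to 53742 in WT pachytene cells, and from 1050 to 7088 in KO-labelled and from 17318 to 35937 in WT LZ cells. The part of spermatids or their RNA in the kinase results was not tested, and in bulk samples fewer cells of a type cannot be told apart from less RNA per cell. As a share of the summed Prm1, Prm2, Tnp1 and Tnp2, the 5 kinases came to 3.33%, 9.34% and 3.15% in KO-labelled pachytene cells, against 1.98%, 1.83% and 2.46% in WT pachytene cells. They came to 3.84%, 2.76% and 5.75% in KO-labelled LZ cells, against 1.4996%, 1.60% and 1.996% in WT LZ cells. At both stages the kinases were thus higher relative to these 4 genes in each KO-labelled library. The ratio holds for these genes and not for the spermatid list as a whole. Over all 18 markers the median log2 change was -2.40 at pachytene and -2.25 at LZ, against -2.18 and -1.99 over the 5 kinases.

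**Figure D4:**
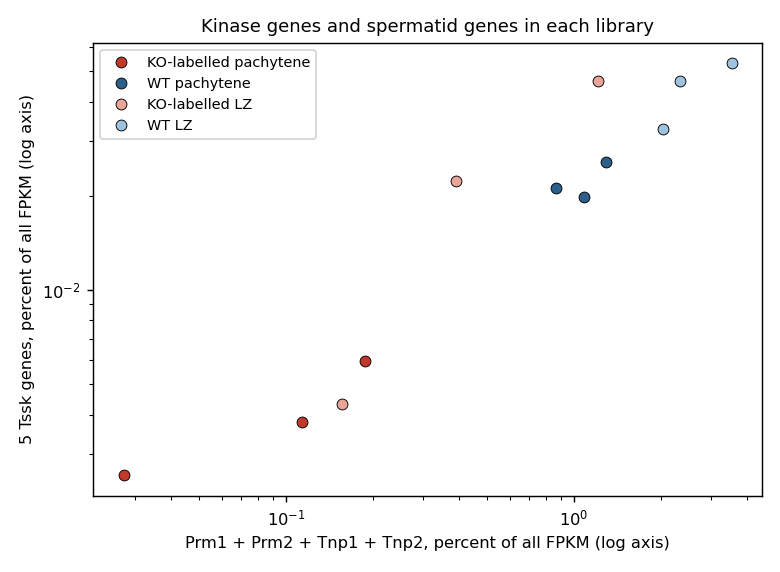
Summed FPKM of the 5 kinase genes against that of Prm1, Prm2, Tnp1 and Tnp2, each as a percent of all FPKM of the library, on log axes (12 libraries). The KO-labelled pachytene libraries sit at the lower left, with 0.00256% to 0.00594% of all FPKM in the kinases, against 0.0199% to 0.0256% in the WT pachytene libraries.

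Markers of other cells also differed between these libraries. At pachytene, 7 of 9 spermatogonia markers tested and 4 of 6 peritubular and endothelial markers were lower in KO-labelled cells (6 and 3 under median-ratio scaling). Of all genes, 14.3% were lower (9.68% under median-ratio scaling). Of the peritubular and endothelial markers, 1 was higher (0 under median-ratio scaling). Of 8 Sertoli markers tested, 1 was lower (2 under median-ratio scaling). Of 8 Leydig markers 2 were higher, and of 7 blood and macrophage markers 1 (1 and 0 under median-ratio scaling). Of all genes, 24.6% were higher (3.28% under median-ratio scaling). Of 12 leptotene and zygotene markers, 5 were lower under both scalings, and 2 were higher on the spike-in scale. Of 14 pachytene markers, 10 were higher and 0 lower, beside 24.6% of all genes higher; under median-ratio scaling 3 were higher. Ldhc, the germ-cell lactate dehydrogenase and the most abundant pachytene marker, averaged 53819 FPKM in KO-labelled and 26365 in WT pachytene cells (limma adjusted p = 0.0096). At LZ, 8 of 14 pachytene markers were lower in KO-labelled cells and 0 higher, beside 12.9% of all genes lower; under median-ratio scaling 0 were lower. The part of these cells in the kinase results was not tested.

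Known partners of the kinases did not share one pattern. Tsks, a substrate of Tssk1 and Tssk2, had 12.7, 10.3 and 14.95 FPKM in KO-labelled pachytene cells, against 48.0, 41.3 and 53.0 in WT pachytene cells, and fell by 1.83 ± 0.60 (SE, limma adjusted p = 0.0315; 0.0727 under median-ratio scaling). It was the 1 lower partner of 11 tested, and 6 were higher, beside 14.3% of all genes lower and 24.6% higher. Those 6 were 1700021C14Rik (Tsacc, which links Tssk6 to HSP90), Crem (a transcription factor of spermatids), H2afx (a histone that TSSK6 phosphorylates), Hsp90aa1 (a chaperone), Ppp1cc (a phosphatase) and Spag16 (an axoneme protein).

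1700021C14Rik averaged 7695 FPKM in KO-labelled and 4450 in WT pachytene cells, a log2 change of 0.78 (limma adjusted p = 0.0189), while Tssk6 itself was lower. Crem averaged 953 FPKM in KO-labelled and 578 in WT pachytene cells, a log2 change of 0.72 (limma adjusted p = 0.0403). Odf2, an outer dense fibre gene, was the most abundant partner not called (3470 FPKM in KO-labelled and 2131 in WT pachytene cells, limma adjusted p = 0.058). Under median-ratio scaling 1 partner was called higher, H2afx, and 1 lower, the chaperone gene Hspa8. At LZ, 4 of the 11 partners were lower and 0 higher (12.9% of all genes lower), namely 1700021C14Rik, Odf2, Spag16 and Tsks, and 0 were called under median-ratio scaling.

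Of 13 AMP-activated-protein-kinase-related genes tested, 3 (Hunk, Mark2 and Prkaa1) were higher in KO-labelled pachytene cells and 0 were lower, a share near the 24.6% of all genes called higher. Of 8 other germ-cell kinases, 5 (Csnk2a2, Nek2, Prkaca, Stk31 and Stk33) were higher there and Camk4 was lower. Stk33, a kinase needed for sperm tail formation in the mouse, averaged 1546 FPKM in KO-labelled and 775 in WT pachytene cells, a log2 change of 0.98 (limma adjusted p = 0.0146). Mark3 (35.0 FPKM in KO-labelled and 33.5 in WT pachytene cells) and Mak (165 in KO-labelled and 99.8 in WT) were the most abundant not called. Under median-ratio scaling 0 of the related genes and 2 of the germ-cell kinases, Nek2 and Stk33, were called higher at pachytene. Of all genes, 3.28% were called higher under that scaling, and Camk4 was not called. At LZ, Mak and Stk33 were lower (12.9% of all genes lower), and 0 germ-cell kinases were called under median-ratio scaling. No related kinase was called at LZ under either scaling.

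The family gene Tssk5 lies outside the members and did not pass the filter: it ranged from 0 to 1.27 FPKM in KO-labelled pachytene cells and from 0.491 to 0.977 in WT pachytene cells. Tssk6 shares 375 of its 1335 exonic bases with Ndufa13 on the opposite strand, and whether counting used strand is not given in the sources used here. Ndufa13, a subunit of mitochondrial complex I, averaged 1729 FPKM in KO-labelled and 1426 in WT pachytene cells, on the spike-in scale in the other direction from Tssk6. Under median-ratio scaling its groups overlapped (607, 615 and 678 in KO-labelled, against 671, 757 and 590 in WT pachytene cells). Reads from the shared stretch cannot be assigned to either gene from these values. The RefSeq span of Tssk3 overlaps that of Fam229a and the span of Tssk4 that of Tm9sf1, both on the opposite strand, but with 0 shared exonic bases in the GENCODE annotation.

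Profiles over the 12 libraries were compared by the root mean square difference of log2 values, each gene centred on its own mean. The closest members were Tssk2 and Tssk3, at 0.32, and Tssk6 lay 0.85 to 1.12 from the other members. By nearness among all genes, Tssk3 ranked 71 for Tssk2 and Tssk2 ranked 34 for Tssk3. In the other pairs of members the ranks ran from 59 to 5215, so other genes lay nearer to each member. For the nearest genes, symbols of predicted gene models, Rik and other clone names, microRNAs and small nucleolar RNAs were left out. Of the rest, the genes nearest to Tssk1 were Otub2, Creb3l4, Lpcat2b, Fam71f2 and Ccdc91. Those nearest to Tssk2 were Ccdc70, Chn2, Cypt12, Cypt1 and Fam71d. Tssk3 was nearest to Wbscr25, Iqcf3, Spert, Dnajc5b and Asb17, and Tssk4 to Pdzk1ip1, Tmem210, Izumo3, Rbl2 and Nipsnap3a. Tssk6 had the most distant of these neighbours, from Oxct2b at 0.48 through Bpifa3, Znrf4 and Slfnl1 to Tsks at 0.70. The nearest of them to Tssk2 lay at 0.16. Likeness was measured over 15399 genes in libraries that share their scaling, and the neighbours, having been picked for this likeness, give no separate support.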

How the data were processed

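Libraries were made from amplified cDNA of polyadenylated RNA and read from both ends, per the labels' protocols. TopHat2 2.1.1, Cufflinks 2.2.1 and build mm9 are named in the submitters' processing notes. The deposited FPKM values had been scaled by the authors with ERCC spike-ins; the formula and annotation are not given in the sources used here. The table gives no read counts, depth is therefore unknown, and no counting intervals are given. A further 4 columns without a name were not used; within a relative difference of 4.09e-07, 3 of them equal group means and 1 is the average of KO-labelled LZ libraries 1 and 3, which leaves out library 2. Genes with at least 1 FPKM in at least 3 of 12 libraries were kept (15400 of 23235). Values were transformed as log2(value + 1), which understates changes of low genes, and fitted with 1 mean per group in limma 3.58.1 (R 4.3.3) with a variance trend and Benjamini-Hochberg adjustment over all genes. The script was tested on simulated data. The spike-in scale was kept. Median-ratio, total and quantile scaling, other pseudocounts and filters, fits of only the groups compared, a fit without the variance trend, a replicate block and leaving out libraries were the alternatives. The members and gene lists were chosen with earlier results of these data known. Named genes were the members, Tssk5, Rnaseh1, 5 spermatid genes and the most abundant marker of a list. Also named were called members of the kinase lists with the most abundant one not called. The 5 nearest profiles per member were added, with predicted, Rik and similar symbols left out, and Ndufa13 because it overlaps Tssk6. Sequences are RefSeq's, of GRCm38.p6, and all 5 members matched by symbol; transcripts and exons are from GENCODE on GRCm38, a later build than mm9, and no coordinates were converted. Amino acid sequences were not used here.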

Additional observations from a re-analysis of the deposited data

How the results depend on the processing

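All 5 kinases were lower in KO-labelled than in WT cells at both stages under each alternative run, 16 at pachytene and 17 at LZ; how many passed the threshold varied. The cause was not tested for any change given here, except that median-ratio scaling takes out the shift of all genes by construction. Total and quantile scaling reduced that shift. Total scaling left a median change over all genes of -0.42 for pachytene over LZ in KO-labelled cells and -0.21 in WT cells. Quantile scaling left 0.17 for KO-labelled over WT at pachytene. For KO-labelled against WT at LZ (2 members called), 0 were called under median-ratio, total and quantile scaling, without a filter, with only the groups compared and without both KO-labelled LZ replicate 2 and WT LZ replicate 1 (chosen after seeing the data; it makes the difference smaller by construction), and 4 with a filter of at least 5; leaving out 1 library gave 0 to 5. At pachytene (4 called), quantile normalisation gave 2 and leaving out 1 library 2 to 4. Of the 16 alternatives there, Tssk2 and Tssk3 were each called in 11. Tssk1, not called in the main fit, was called in 3 (lowest limma adjusted p = 0.00698). Over all genes, 1992 were called lower at LZ, and 0 (only the groups compared) to 2925 (without WT replicate 3) under the alternatives. At pachytene 2196 were called lower, with 792 to 2560 under the alternatives, and 3784 higher, with 42 to 5179.

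For pachytene against LZ in KO-labelled cells (1 called higher), 3 were called lower under median-ratio, 5 under total and 2 under quantile scaling; leaving out 1 library gave 1 to 4. In WT cells (2 called higher), these scalings gave 0, pseudocount 5 gave 4, only the groups compared and the removal of both LZ libraries gave 5, and leaving out 1 library gave 1 to 2. For the difference between stages (0 called), leaving out 1 library gave 0 to 2 and the removal of both LZ libraries 2.

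Log2 changes of pachytene over LZ turned round under median-ratio, total and quantile scaling, in that order. In KO-labelled cells they were -0.91, -1.46 and -1.11 for Tssk1, -1.78, -2.28 and -1.75 for Tssk2, -1.71, -2.19 and -1.54 for Tssk3, -2.04, -2.45 and -1.74 for Tssk4, and -2.22, -2.56 and -1.82 for Tssk6. In WT cells they were -0.54, -0.81 and -0.73 for Tssk1, -0.77, -1.04 and -0.93 for Tssk2, -0.67, -0.94 and -0.83 for Tssk3, and -1.20, -1.45 and -1.30 for Tssk6; Tssk4 turned round only under total scaling (-0.25). When 1 library was left out, these changes in KO-labelled cells ran from -0.082 to 1.76 for Tssk3 and from -0.39 to 1.24 for Tssk6. They were negative without LZ replicate 2 (-0.082 and -0.39, with the same values when WT LZ replicate 1 was left out too), and for Tssk6 also without pachytene replicate 1 (-0.02).

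The difference between stage effects of Tssk1 turned to -0.37, -0.66 and -0.38 under the 3 scalings and to -0.54 without both LZ libraries. When 1 library was left out, this difference ran from -0.32 to 1.16 for Tssk1, from -1.08 to 0.42 for Tssk2, from -1.46 to 0.39 for Tssk3 and from -1.23 to 0.40 for Tssk6. KO-labelled LZ replicate 2 gave the negative end and KO-labelled LZ replicate 1 the positive end, except that for Tssk2 the positive end came from KO-labelled pachytene replicate 2.

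Whether replicate numbers pair the samples was not settled. Same-numbered libraries of different groups correlated at -0.17 to 0.26 in their deviations, and 7 of 18 pairs exceeded 0.1. Libraries of different groups with different numbers correlated at -0.26 to 0.17. With the number as a block, 4 members were called for KO-labelled against WT at LZ, 2 for pachytene against LZ in KO-labelled cells and 4 in WT cells.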
